A study of Mus musculus with 8 samples.

Results

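The nuclear pore and the proteins that carry cargo through it were followed in mouse oocytes with and without Rbpms2, through the 44 genes whose symbols begin with Nup and a number, Kpna, Kpnb, Ipo and a number, Xpo or Tnpo. They are all the genes among the 21959 listed whose symbols match this rule, and they comprise 21 nucleoporins and 23 transport receptors. Oocytes came from ovaries at postnatal day 1, when primordial follicles are forming, and 2 genotypes were compared, wild type (WT) and Rbpms2 knockout (KO), with 4 libraries each. Rbpms2 encodes a protein that binds RNA through an RRM domain. Each library was made from 5 to 10 hand-picked, putative primordial oocytes pooled in 1 tube, whose mRNA was amplified for 18 cycles. The labels name neither the removed part of Rbpms2 nor the strain, and they do not say whether the 4 tubes of a genotype came from separate animals. The p-values below therefore reflect only how much the tubes varied, which can be partly technical. Levels are in FPKM (fragments per kilobase of exon, scaled to library depth), a unit that allows for gene length. The length covers all annotated exons of a gene and can far exceed a single transcript. For Tnpo3 it is 13100 bases, against 4251 in the longest coding transcript. Comparisons of level between genes are therefore approximate.

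Nuclear pores are ring-shaped assemblies of nucleoporins that perforate the nuclear envelope. Importin alpha proteins recognise the classical nuclear localisation signal of a cargo and hand it to importin beta 1 (Kpnb1), whereas other importins, transportins and exportins bind their cargo directly, and the GTPase Ran gives the transport its direction. Mammals have several importin alpha genes that differ in cargo preference and in the tissues that express them, and Kpna7 is the one known for its restriction to oocytes and early embryos, where maternal stores serve the first divisions.

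Rbpms2 itself stood at 158, 167, 136 and 213 FPKM in wild-type libraries 1 to 4 and at 38.4, 58.3, 31.0 and 42.5 FPKM in the knockout libraries. The genotypes did not overlap, and the mean fell from 168.5 ± 32.3 to 42.5 ± 11.5 FPKM (SD, n = 4 each). Depth, recovered from the read steps of the values, ran from 8321942 to 11941359 reads in wild type and from 9564416 to 14542893 in knockout. The 5 oocyte markers Ddx4, Dazl, Figla, Nobox and Sycp3 summed to 1464 to 2078 FPKM in wild type and 1704 to 2735 FPKM in knockout, with 3 of the 5 called higher and 2 lower. Markers of somatic ovarian cells were also present, and unevenly. The 6 pregranulosa markers summed to 1.57 to 37.0 FPKM in wild type and 7.51 to 253.3 in knockout, and the 6 stromal markers to 3.24 to 67.8 and 6.99 to 253.5. The 5 endothelial markers summed to 1.04 to 2.64 and 3.02 to 95.2 FPKM, the 5 immune markers to 0.126 to 16.1 and 13.6 to 135.9, and the 4 surface epithelial markers to 4.85 to 7.88 and 0.558 to 15.9. The 5 erythroid markers summed to 11.9 to 5344 and 99.6 to 3212 FPKM. No marker of these lists was at 0 in all libraries of either genotype. Wild-type library 3 and knockout libraries 2 and 3 were the richest in pregranulosa and stromal markers, and knockout library 1 in endothelial ones. Of the somatic markers that could be tested, 1 of 3 immune markers was called higher and the 1 surface epithelial marker lower. Without these 3 libraries 1 call among the 44 genes was lost (Ipo13) and 3 were gained (Tnpo1, Nup88 and Nup107). The part of somatic RNA in the other results was not tested.

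All 44 genes passed the filter of 1 FPKM in at least 4 libraries. Kpna7, Nup210, Nup210l and Tnpo2 passed only through the genotype in which they were higher. With limma on log2(FPKM + 1) and a Benjamini-Hochberg adjusted p under 0.05 over all 11235 genes tested, 18 of the 44 changed, a share of 40.9% beside 43.4% of all genes. Of the 18, 9 were higher and 9 lower in knockout (20.5% each), against 17.7% of all genes higher and 25.6% lower. In 16 of the 44 (36.4%) the 2 genotypes did not overlap in any library, against 39.9% of all genes. The shares thus lay near those of the whole table. The median log2 difference, knockout minus wild type, was 0.11 over the 44 genes and -0.12 over all genes tested, and 54.5% against 45.7% of the differences were above 0. The changes among the 44 ran from -2.94 for Kpna7 to 3.40 for Nup210l, within the range of -10.18 to 6.92 over all genes tested. Because each tube pools whole cells, fewer oocytes with a transcript and less of it per oocyte cannot be told apart.

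**Figure D1:**
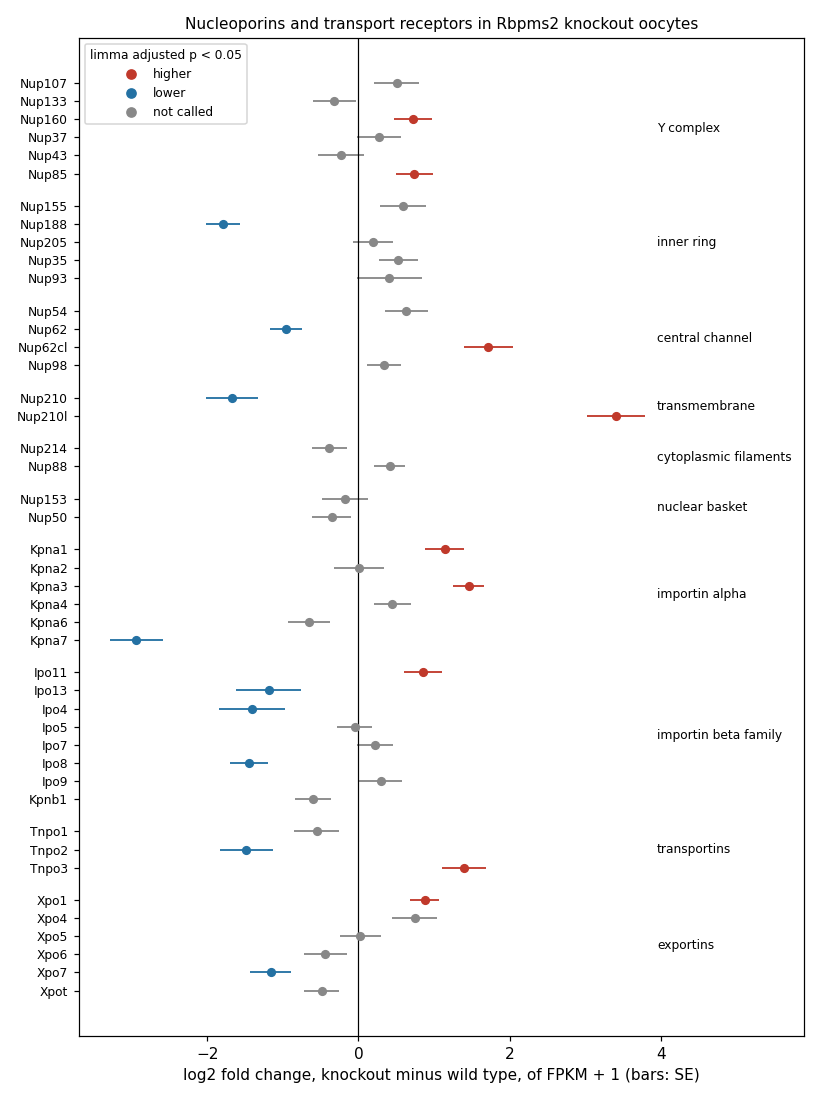
Difference in log2(FPKM + 1), knockout minus wild type, for each of the 44 genes, grouped by role; bars are the standard error of the limma fit with 4 libraries per genotype, and colour gives the call. Called genes of both directions occur within the importin alpha, importin beta, transportin, exportin, central channel and transmembrane groups. The extremes are Nup210l at 3.40 and Kpna7 at -2.94.

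By level, Kpna2 was the most abundant of the 44 in both genotypes, at a mean of 223 FPKM in wild type and 233 FPKM in knockout. The next gene was Nup62 in wild type (48.6 FPKM) and Nup62cl in knockout (63.5 FPKM). Lowest by mean were Nup210l in wild type (0.601 FPKM) and Kpna7 in knockout (0.606 FPKM).

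Among the importin alpha genes, the adaptors that read the classical import signal, Kpna7 fell 17.4-fold in mean FPKM while Kpna3 rose 2.91-fold and Kpna1 2.47-fold. The abundant Kpna2 was not called. Thus 2 of the 6 were higher, 1 lower and 3 (Kpna2, Kpna4, Kpna6) not called. Kpna7 lies at chr5:144983519-145084030 (minus strand) and Kpna2 at chr11:106988629-106999541 (minus strand) in GRCm38, both protein-coding. The 250 bases before their RefSeq starts (GRCm38.p6) are shown because the comparison of importin alpha paralogs turns on this pair, with every match to CANNTG, the core letters that basic helix-loop-helix factors such as the oocyte factor Figla bind, in capitals. They cover chr5:145009637-145009886 for Kpna7 and chr11:106999526-106999775 for Kpna2, both on the minus strand.
Kpna7: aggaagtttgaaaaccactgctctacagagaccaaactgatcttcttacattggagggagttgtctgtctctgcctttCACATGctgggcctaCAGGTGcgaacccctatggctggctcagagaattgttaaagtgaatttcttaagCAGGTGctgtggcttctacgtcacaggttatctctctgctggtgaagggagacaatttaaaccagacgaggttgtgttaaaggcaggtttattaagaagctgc
Kpna2: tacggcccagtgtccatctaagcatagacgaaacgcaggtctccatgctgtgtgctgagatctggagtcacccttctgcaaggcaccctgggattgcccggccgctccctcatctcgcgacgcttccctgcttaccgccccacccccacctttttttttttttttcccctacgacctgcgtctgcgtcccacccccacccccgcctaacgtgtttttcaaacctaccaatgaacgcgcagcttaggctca
Kpna7 holds 3 matches and Kpna2 0 in these stretches. The RefSeq start of Kpna7 lies within the longer gene model of the annotation used for the levels, and which start these oocytes used was not measured.

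Kpna7 stood at 12.1, 7.93, 9.67 and 12.5 FPKM in wild-type libraries 1 to 4, from 453, 247, 256 and 325 reads. In the knockout libraries it stood at 1.39, 0, 0 and 1.03 FPKM, from 51, 0, 0 and 31 reads. Every knockout library was thus far below every wild-type library, and in libraries 2 and 3 a count of 0 allows at most 3 reads, or 0.0658 and 0.0803 FPKM. The mean fell from 10.5 ± 2.13 to 0.606 ± 0.715 FPKM (log2 difference -2.94 ± 0.36 SE, limma adjusted p = 0.000112). Kpna7 shares 50 of its 3135 exon bases with Arpc1a on the opposite strand, and Arpc1a moved the other way, from 64.9 to 129 FPKM. No source used here states whether the counting used strand.

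Kpna2, an importin alpha of proliferating and early embryonic cells, stood at 290.2, 253, 141 and 207 FPKM in wild type and at 236, 320.2, 111 and 264 FPKM in knockout. The genotypes overlapped widely, with the lowest value of each in library 3 (222.8 ± 64.3 and 232.7 ± 88.5 FPKM, log2 difference 0.01 ± 0.33, adjusted p = 0.982). The transcript of Kpna2 is 99.9% identical over 1968 bases to Gm10184, which was listed at 5.22 FPKM in wild type and 6.72 FPKM in knockout. The pseudogenes Gm10259 (99.8% over 1590 bases), Gm12919 (96.9% over 1595 bases), Gm13310 and Gm44018 are near copies too, and none was listed. Reads of these genes may thus have been divided or dropped in counting.

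Set against each other, Kpna2 exceeded Kpna7 by 14.6 to 32.0 times in the wild-type libraries. In knockout the ratio was 169.5 and 255.3 in libraries 1 and 4, and Kpna7 was at 0 in the other two. The log2 ratio of Kpna7 to Kpna2, each with 1 FPKM added, ran from -4.83 to -3.73 in wild type and from -8.33 to -6.63 in knockout, with no overlap. The difference was -2.95 (exact two-sided permutation test, p = 0.0286, the smallest that 4 against 4 allows). Kpna7 alone differed by -2.94 and Kpna2 by 0.01. The ratio thus restates the fall of Kpna7 given above, and its test adds no separate support. The size of the ratio difference depends on the amount added: it was -4.87 with 0.1 FPKM and -1.48 with 5 FPKM.

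Kpna3, an importin alpha found in many tissues, stood at 14.0, 13.8, 13.0 and 10.6 FPKM in wild type and at 36.6, 29.0, 37.0 and 47.4 FPKM in knockout. The lowest knockout library was above the highest wild-type library by a wide margin. The log2 difference was 1.46 ± 0.21 (adjusted p = 0.000308), and it was 0.74 after the GC trend described below was removed. Kpna1, of the same adaptor family, stood at 4.09, 4.97, 5.53 and 6.46 FPKM in wild type and at 14.2, 8.52, 13.0 and 16.2 FPKM in knockout. Again no library overlapped (log2 difference 1.14 ± 0.26, adjusted p = 0.00467), but the call was lost with the GC trend removed (0.59, adjusted p = 0.0820).

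Kpna4, the closest relative of Kpna3, stood at 4.19, 6.16, 6.56 and 6.77 FPKM in wild type and at 8.14, 6.75, 8.92 and 9.75 FPKM in knockout. The ranges overlapped slightly and the gene was not called (0.45 ± 0.24, adjusted p = 0.157). Kpna6 stood at 10.6, 12.4, 12.7 and 14.9 FPKM in wild type and at 7.14, 4.40, 10.7 and 9.80 FPKM in knockout. Only knockout library 3 overlapped the wild-type range, and the adjusted p was 0.0802 with all libraries and 0.0418 without that one.

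As a share of the summed FPKM of the 6 genes, Kpna2 made up 81.6 ± 5.28% in wild type and 75.4 ± 10.5% in knockout. Kpna7 made up 4.06 ± 1.14% and 0.189 ± 0.228%, and Kpna3 4.96 ± 1.32% and 13.5 ± 5.24%. Without Kpna2, the other 5 genes summed to 47.3 ± 2.87 FPKM in wild type and 67.5 ± 14.6 FPKM in knockout, so the fall of Kpna7 was not matched by a fall of that sum. These shares are descriptions, since each share depends on all 6 levels.

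**Figure D2:**
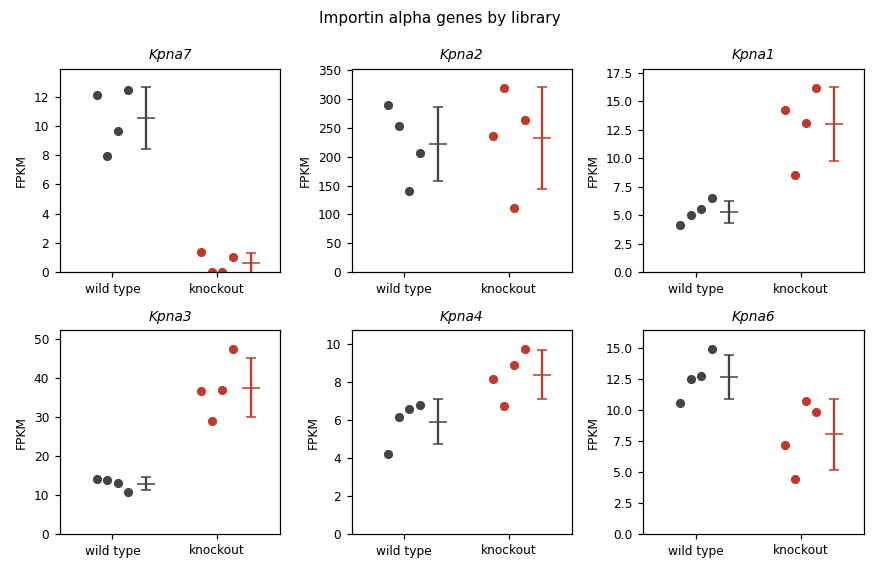
FPKM of the 6 importin alpha genes in each of the 4 wild-type and 4 knockout libraries (points), with the mean and SD beside them; each panel has its own axis from 0. Kpna7 lies between 7.93 and 12.5 FPKM in wild type and at or below 1.39 FPKM in knockout, Kpna3 and Kpna1 lie higher in every knockout library, and Kpna2 overlaps between genotypes.

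Kpnb1, the importin beta 1 with which importin alpha enters the nucleus, was examined with the 7 other importins. Of these 8 genes 3 were lower (Ipo8, Ipo4, Ipo13), 1 higher (Ipo11) and 4 not called. Kpnb1 stood at 13.7, 20.4, 24.4 and 25.9 FPKM in wild type and at 11.1, 12.5, 14.1 and 15.4 FPKM in knockout. Only wild-type library 1 reached into the knockout range. The difference was -0.60 ± 0.24 and not called (adjusted p = 0.0639), whereas it was called without that library (adjusted p = 0.0194) and with the GC trend removed (0.0381).

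Ipo8, an importin known for carrying Argonaute and SMAD proteins, stood at 12.7, 11.3, 10.4 and 10.1 FPKM in wild type and at 3.21, 2.25, 4.38 and 4.32 FPKM in knockout. It fell 3.15-fold without overlap (-1.44 ± 0.25, adjusted p = 0.00105). Its close relative Ipo7 was not called, at 4.94 ± 1.13 and 5.84 ± 0.638 FPKM. In every wild-type library Ipo8 was the higher of these paralogs in FPKM, and in every knockout library Ipo7 was. This pair was not a planned comparison, so its order is a description. With the GC trend removed Ipo8 was at -1.73 and Ipo7 at -0.45, with Ipo7 again not called.

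Ipo4, which carries histones and ribosomal proteins, stood at 8.65, 10.2, 30.3 and 14.9 FPKM in wild type and at 2.67, 9.51, 2.84 and 6.27 FPKM in knockout. Knockout library 2 overlapped the wild-type range and wild-type library 3 stood far above the rest (-1.41 ± 0.44, adjusted p = 0.0241). The call was lost when wild-type library 3 or 4 or knockout library 1 or 3 was left out (adjusted p = 0.0531 to 0.0667) and with the GC trend removed (0.104). Of its 4669 exon bases, 2583 are shared on the same strand with Gm49378, listed at 0 in all libraries, and no source used here states how reads in shared bases were assigned.

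Ipo13, an importin that also exports some cargo, stood at 8.88, 8.73, 12.8 and 11.1 FPKM in wild type and at 9.37, 1.06, 3.47 and 5.22 FPKM in knockout. Knockout library 1 lay within the wild-type range (-1.19 ± 0.43, adjusted p = 0.0440). This was the least stable call. It was lost when any wild-type library or knockout library 2 or 3 was left out (adjusted p = 0.0691 to 0.0994, with a difference of -0.77 without knockout library 2), with the GC trend removed (0.276), and without the 3 libraries rich in somatic markers (0.339).

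Ipo11, an importin for ubiquitin-conjugating enzymes, was the member of this group that rose, from 9.92, 9.66, 7.68 and 8.36 FPKM in wild type to 22.5, 14.6, 11.5 and 20.8 FPKM in knockout. No library overlapped (0.85 ± 0.25, adjusted p = 0.0184), but the call was lost without knockout library 1 (0.0573) or 4 (0.0513) and with the GC trend removed (0.173). Ipo5 (43.0 ± 6.26 and 42.7 ± 13.1 FPKM), an importin for ribosomal proteins and histones, and Ipo9 (6.15 ± 0.865 and 8.12 ± 3.33 FPKM) were not called.

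The 3 transportins split, with Tnpo3 higher, Tnpo2 lower and Tnpo1 not called. Tnpo3, the import receptor of serine/arginine-rich splicing factors, stood at 2.52, 2.53, 2.52 and 2.95 FPKM in wild type and at 12.4, 6.28, 5.98 and 11.2 FPKM in knockout. It rose 3.41-fold without overlap (1.40 ± 0.29, adjusted p = 0.00278). Of its 13100 exon bases, 411 are shared with Irf5 on the opposite strand, which reached at most 0.0414 FPKM in wild type and 1.30 FPKM in knockout.

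Tnpo2, which like Tnpo1 carries RNA-binding proteins, stood at 5.30, 4.04, 3.75 and 9.23 FPKM in wild type and at 1.77, 0.985, 2.12 and 0.466 FPKM in knockout. It fell 4.18-fold, and every knockout library was below every wild-type library (-1.48 ± 0.35, adjusted p = 0.00619). Of its 6285 exon bases, 666 are shared on the opposite strand with A230103J11Rik, which was not listed. Tnpo1, the near relative of Tnpo2, was more abundant in FPKM in all 8 libraries and was not called (22.8 ± 7.41 and 15.5 ± 5.87 FPKM, adjusted p = 0.158). It was called lower with the GC trend removed (-1.21, adjusted p = 0.0145), and a pseudogene, Gm6493, is 97.3% identical to it over 2656 bases.

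Among the 6 exportins, Xpo1 was higher, Xpo7 lower and 4 not called. Xpo1, also known as CRM1, the receptor of leucine-rich nuclear export signals, stood at 20.4, 17.9, 21.3 and 17.2 FPKM in wild type and at 42.3, 28.4, 34.0 and 40.6 FPKM in knockout. It rose 1.89-fold without overlap (0.87 ± 0.20, adjusted p = 0.00458). With the GC trend removed the difference was 0.21 and the call was lost (adjusted p = 0.365).

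Xpo7, an exportin with a broad range of cargo, stood at 4.66, 5.62, 8.93 and 6.60 FPKM in wild type and at 2.77, 1.94, 2.54 and 1.86 FPKM in knockout. It fell 2.83-fold without overlap (-1.16 ± 0.27, adjusted p = 0.00550). Xpo7 shares 39 of its 19005 exon bases on the same strand with Npm2, an oocyte nuclear chaperone that fell from 432.8 to 1.39 FPKM, and the part of those bases in the result was not tested.

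Xpo4 stood at 1.90 ± 0.258 FPKM in wild type and 4.04 ± 1.66 FPKM in knockout without overlap, but missed the threshold (0.75 ± 0.30, adjusted p = 0.0636); without knockout library 2 it passed (0.0325), as it did with median-of-ratios (0.0335) and quantile scaling (0.0126). Xpo5, the exporter of microRNA precursors (8.89 ± 2.29 and 9.09 ± 2.70 FPKM), Xpo6, the exporter of actin (6.88 ± 1.91 and 4.80 ± 1.34 FPKM), and Xpot, the exporter of tRNA (14.5 ± 2.38 and 10.1 ± 2.16 FPKM), were not called. Xpot was called lower with the GC trend removed (-0.71, adjusted p = 0.0258).

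The membrane-anchored part of the pore gave the widest contrast among the nucleoporins, with Nup210 lower and its relative Nup210l higher in knockout. Both encode large membrane-spanning proteins of the pore's lumenal side, and Nup210l is best known from the testis. Nup210l lies at chr3:90104132-90212048 (plus strand) and Nup210 at chr6:91013068-91116829 (minus strand) in GRCm38. Nup210l stood at 1.19, 0.106, 0.145 and 0.966 FPKM in wild type and at 22.9, 8.19, 12.7 and 21.7 FPKM in knockout. It rose 27.3-fold, from 140 reads over the wild-type libraries to 4266 over the knockout libraries (3.40 ± 0.38, adjusted p = 7.28e-05). The log2 difference was 4.89 with 0.1 FPKM added in place of 1, and 1.87 with 5.

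Nup210 stood at 5.36, 8.86, 10.4 and 7.53 FPKM in wild type and at 1.75, 3.91, 0.930 and 1.27 FPKM in knockout. It fell 4.10-fold without overlap (-1.67 ± 0.34, adjusted p = 0.00269). Nup210l made up 1.18% to 18.1% of the summed FPKM of both genes in the wild-type libraries and 67.7% to 94.5% in the knockout libraries. The pair was singled out after its values were seen, so the share is a description.

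The central channel showed a similar split between paralogs, though with the GC trend removed only the rise of Nup62cl stayed called. Nup62, a channel protein rich in phenylalanine-glycine repeats that forms part of the permeability barrier, stood at 57.0, 50.1, 34.3 and 53.0 FPKM in wild type and at 23.1, 30.2, 22.2 and 22.0 FPKM in knockout. It fell 2.00-fold without overlap (-0.96 ± 0.21, adjusted p = 0.00428), and the call was lost with the GC trend removed (-0.42, adjusted p = 0.137). Nup62 shares 82 of its 2854 exon bases with Atf5 on the opposite strand and 97 with Il4i1 on the same strand, neither of which exceeded 4.70 FPKM in any library.

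Nup62cl, an X-linked gene named for its similarity to the Nup62 carboxy terminus, stood at 24.3, 31.9, 12.9 and 11.0 FPKM in wild type and at 78.7, 67.2, 47.0 and 61.2 FPKM in knockout. It rose 3.17-fold without overlap (1.72 ± 0.32, adjusted p = 0.00167). With the GC trend removed the difference shrank to 1.0975 and stayed called (adjusted p = 0.0173). The paralogs lie far apart in GC content, at 41.08% for Nup62cl and 57.42% for Nup62. Nup62cl made up 17.2% to 38.9% of the summed FPKM of Nup62 and Nup62cl in wild type and 68.0% to 77.3% in knockout. These shares use FPKM without the GC correction, and again describe a pair singled out after its values were seen.

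Nup98, which lines the channel and binds the mRNA export factors, stood at 7.84, 9.50, 12.3 and 11.4 FPKM in wild type and at 13.4, 11.6, 11.4 and 16.1 FPKM in knockout. The ranges overlapped and it was not called (0.34 ± 0.23, adjusted p = 0.250). Nup54, a partner of Nup62, was not called either (25.2 ± 9.91 and 38.1 ± 8.21 FPKM, adjusted p = 0.0955).

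Of the 5 inner ring nucleoporins, which form the core scaffold, Nup188 was lower and 4 were not called. Nup188 stood at 25.3, 21.4, 21.8 and 27.8 FPKM in wild type and at 8.41, 5.07, 5.04 and 6.82 FPKM in knockout. It fell 3.80-fold with a wide gap between genotypes (-1.79 ± 0.23, adjusted p = 0.000150). Of its 6241 exon bases, 492 are shared on the opposite strand with Gm14471, which was not listed. A further 284 are shared on the same strand with Gm28038, listed at 0 in all libraries. Nup205, the structural relative of Nup188, was not called (6.83 ± 0.362 and 8.22 ± 2.49 FPKM, adjusted p = 0.588). Nup188 was the higher of these in FPKM in all 4 wild-type libraries, and Nup205 was in 3 of the 4 knockout libraries. That pair was not a planned comparison either, so the order is a description. Nup35, Nup93 and Nup155 were not called, with differences of 0.53, 0.41 and 0.59. A near-identical gene, Gm4353, matches Nup35 at 99.6% over 1547 bases, so its level is uncertain.

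**Figure D3:**
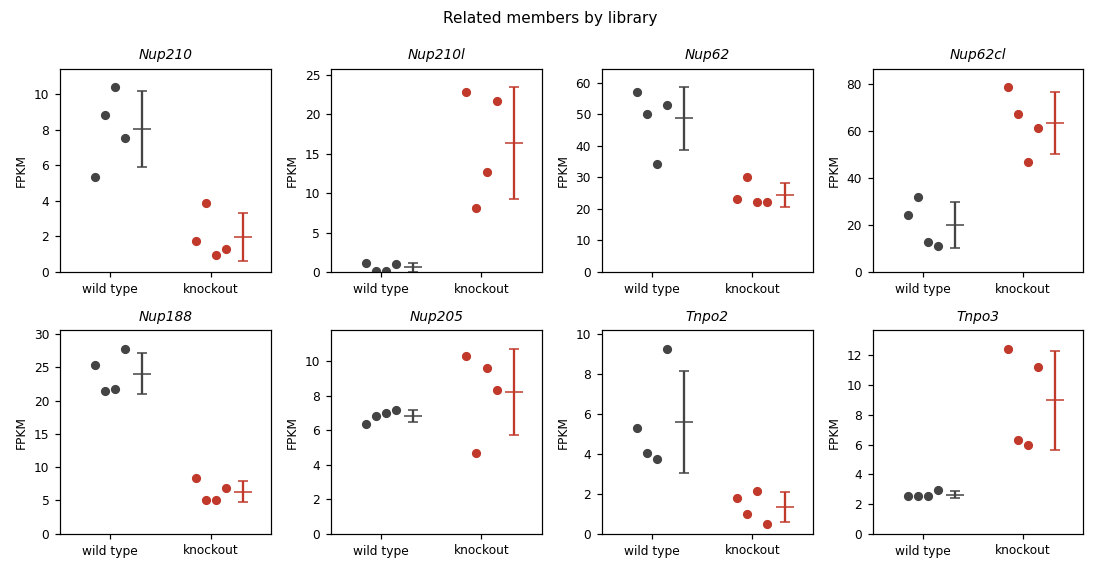
FPKM of Nup210, Nup210l, Nup62, Nup62cl, Nup188, Nup205, Tnpo2 and Tnpo3 in each of the 4 wild-type and 4 knockout libraries (points), with the mean and SD beside them; each panel has its own axis from 0. Nup210, Nup62, Nup188 and Tnpo2 are lower in every knockout library, and Nup210l, Nup62cl and Tnpo3 are higher in every knockout library, while Nup205 overlaps. The near relative of Tnpo2 is Tnpo1, which is not shown and was not called.

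The Y complex is the outer ring scaffold that also acts at kinetochores. Of its 6 genes in the set, 2 were higher and none lower (4 not called). Its subunits Sec13 and Seh1l have symbols outside the rule. Both were called lower (differences of -0.90 and -0.66, limma adjusted p = 0.00475 and 0.0417). Seh1l overlapped between genotypes, at 24.3 FPKM in knockout library 4 and 21.9 FPKM in wild-type library 3. Ahctf1, another listed pore protein outside the rule, was not called (0.19, limma adjusted p = 0.506). Nup85 stood at 25.5, 20.0, 25.7 and 19.8 FPKM in wild type and at 54.3, 35.1, 25.2 and 44.9 FPKM in knockout. Knockout library 3 lay within the wild-type range (0.74 ± 0.25, adjusted p = 0.0325), and the call was lost without wild-type library 2 or 4 or knockout library 1 or 4 (adjusted p = 0.0775 to 0.0949). Nup160 stood at 6.19, 6.24, 5.45 and 5.88 FPKM in wild type and at 12.6, 7.48, 8.88 and 14.3 FPKM in knockout. The genotypes did not overlap (0.73 ± 0.25, adjusted p = 0.0370), yet the call was lost when any wild-type library or knockout library 1 or 4 was left out (adjusted p = 0.0641 to 0.102) and with the GC trend removed (0.180).

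Nup107, a core subunit of the Y complex, stood at 34.6, 28.6, 33.3 and 31.3 FPKM in wild type and at 68.5, 39.9, 24.8 and 63.2 FPKM in knockout. Knockout library 3 was below every wild-type library and the other knockout libraries above them (0.50 ± 0.29, adjusted p = 0.187). Without that library the adjusted p was 0.0165. Nup37, Nup43 and Nup133 were not called, with differences of 0.27, -0.23 and -0.32.

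The cytoplasmic filament and nuclear basket genes of the set, at the 2 faces of the pore, had no called member. Outside the rule, Ranbp2 of the cytoplasmic filaments was called higher (1.11, limma adjusted p = 0.00206). Gle1, at the same face, was called lower (-0.67, limma adjusted p = 0.0275). Nup153, a basket protein that docks import complexes, stood at 8.03, 12.9, 14.4 and 13.3 FPKM in wild type and at 8.66, 6.21, 15.2 and 13.9 FPKM in knockout. The ranges overlapped almost fully (-0.18 ± 0.31, adjusted p = 0.658). Nup50 (14.8 ± 5.02 and 10.9 ± 0.960 FPKM), which helps to release importin alpha cargo, Nup88 (29.4 ± 2.91 and 40.0 ± 9.25 FPKM) and Nup214 (13.1 ± 2.95 and 9.66 ± 1.53 FPKM) had adjusted p-values from 0.128 to 0.288. Over all 21 nucleoporins 4 were higher, 3 lower and 14 not called, with a median difference of 0.34. Over the 23 receptors 5 were higher, 6 lower and 12 not called, with a median of -0.05.

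**Figure D4:**
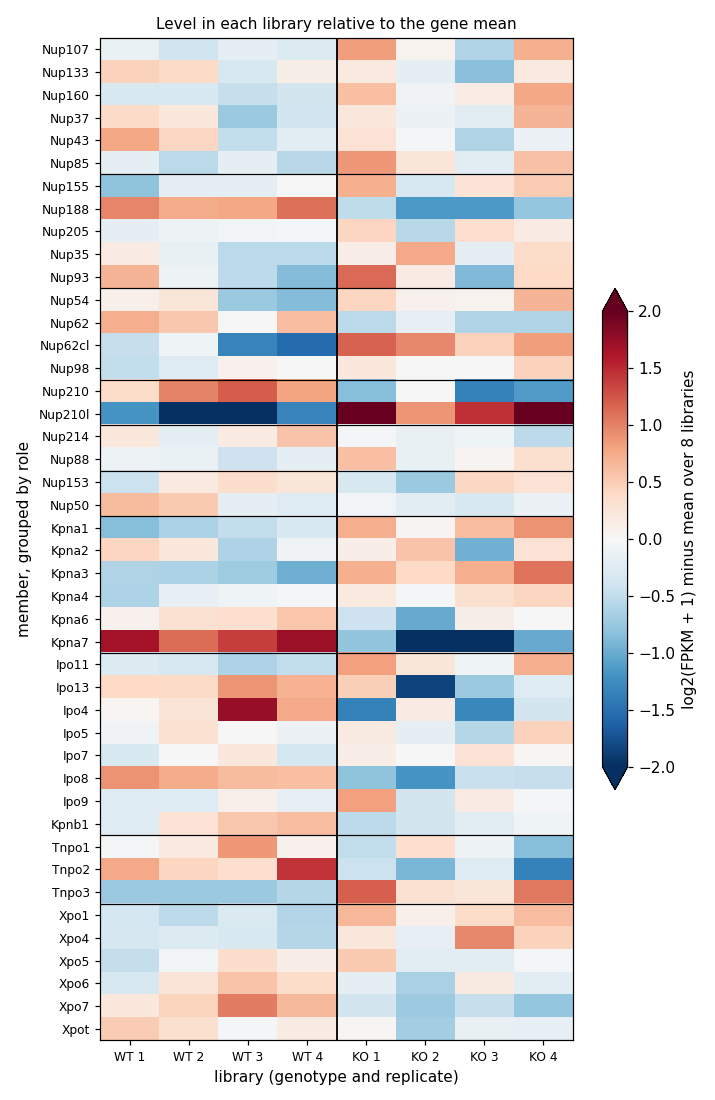
Level of each of the 44 genes in each library as log2(FPKM + 1) minus its mean over the 8 libraries; rows are grouped by role, columns are libraries, and colours are capped at 2 in either direction. Rows such as Nup210l, Kpna3, Kpna7 and Nup188 split at the line between genotypes, whereas Kpna2 and Nup93 vary as much within a genotype as between them.

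Pore proteins that act beside these genes but carry other names were read from a fixed list of 11, of which 2 were higher, 4 lower and 5 not called. The shares of all genes given above, 17.7% higher and 25.6% lower, apply to this and the next lists too. Ranbp2, the large SUMO ligase of the cytoplasmic filaments, rose from 9.56 ± 0.888 to 22.1 ± 4.80 FPKM (1.11 ± 0.22, adjusted p = 0.00206), although the difference was 0.46 and not called with the GC trend removed (adjusted p = 0.108). Pom121, a transmembrane nucleoporin, fell from 26.4 ± 8.68 to 8.86 ± 1.83 FPKM (-1.43 ± 0.27, adjusted p = 0.00179). Sec13, shared by the Y complex and the COPII coat, fell from 69.98 ± 13.3 to 36.9 ± 5.84 FPKM (-0.90 ± 0.20, adjusted p = 0.00475). Tpr, the coiled-coil protein of the basket, was at 32.5 ± 2.16 and 37.6 ± 3.61 FPKM and not called (adjusted p = 0.349). The pore genes listed as Nupl1 and Nupl2 have symbols outside the rule. Nupl1 was listed at 0 in all libraries, with 1756 of its 3602 exon bases shared on the same strand with Gm49336. Gm49336 stood at 7.10 ± 1.80 FPKM in wild type and 9.41 ± 1.63 FPKM in knockout and was not called. The 0 therefore does not show that Nupl1 was absent. Nupl2 stood at 4.14 ± 0.692 and 8.65 ± 3.86 FPKM (adjusted p = 0.0571).

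The Ran cycle changed in both directions, with 3 of 8 tested genes higher, 3 lower and 2 not called, and Rangrf listed at 0. Ran rose from 247 ± 48.5 to 422 ± 95.04 FPKM (0.76 ± 0.22, adjusted p = 0.0176), with knockout library 3 inside the wild-type range. Cse1l, the exportin that returns importin alpha to the cytoplasm, rose from 35.4 ± 2.85 to 99.9 ± 40.9 FPKM without overlap (1.38 ± 0.28, adjusted p = 0.00241). Rcc1, which loads Ran with GTP in the nucleus, fell from 15.5 ± 3.70 to 6.89 ± 2.39 FPKM (-1.08 ± 0.27, adjusted p = 0.00801). Rangap1, which triggers GTP hydrolysis by Ran in the cytoplasm, fell from 31.3 ± 3.44 to 9.44 ± 2.86 FPKM (-1.66 ± 0.23, adjusted p = 0.000270). Nutf2, which brings Ran back into the nucleus, fell from 114 ± 25.7 to 61.3 ± 11.95 FPKM (-0.88 ± 0.22, adjusted p = 0.00797).

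Messenger RNA export runs through the same pores with its own receptors, and 10 of 23 tested genes of its list were higher, 3 lower and 10 not called (Nxf7 was listed at 0), beside 17.7% and 25.6% of all genes. Nxt2, a cofactor of the Nxf receptors, rose from 5.34 ± 2.76 to 58.7 ± 21.03 FPKM (3.26 ± 0.35, adjusted p = 6.02e-05). Thoc1, a subunit of the THO complex that couples transcription to export, rose from 4.52 ± 1.501 to 20.9 ± 4.16 FPKM (2.00 ± 0.26, adjusted p = 0.000174). Ddx19a, a DEAD-box helicase of the family that releases mRNA at the cytoplasmic face, fell from 36.4 ± 3.61 to 8.79 ± 3.78 FPKM (-2.01 ± 0.28, adjusted p = 0.000270). The main receptor Nxf1 was at 49.997 ± 4.35 and 52.4 ± 20.5 FPKM and not called (adjusted p = 0.995). Its paralogs Nxf2 and Nxf3, named after their values were seen, were both higher without overlap. Both passed the filter only through the knockout, so their adjusted p-values are descriptions. Nxf2 stood at 0.978 FPKM in wild-type library 1. Nxf3 stood at 0.0824, 0, 4.08 and 0 FPKM in wild-type libraries 1 to 4, so its wild-type mean rests on library 3, one of those rich in somatic markers. Nxf2 rose from 18.0 ± 14.8 to 142 ± 106 FPKM (3.22 ± 0.81, adjusted p = 0.00832) and Nxf3 from 1.04 ± 2.03 to 25.6 ± 15.4 FPKM (3.87 ± 0.62, adjusted p = 0.000663). Over the 42 tested genes of these 3 lists 15 were higher and 10 lower, with a median difference of 0.20 against -0.12 over all genes tested. With the GC trend removed, 11 were higher and 12 lower, beside 14.8% and 23.5% of all genes. Under that correction Nxt2, Thoc1 and Cse1l were at 2.25, 1.32 and 0.80. Pom121, Rangap1 and Rcc1 were at -0.89, -1.26 and -0.80, and all 6 stayed called.

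The called genes of the pore and receptor set differed in base composition, as did all genes of the table. GC content of the longest coding transcript had a median of 43.9% for the 9 higher genes, 54.3% for the 9 lower and 46.8% for the 26 not called. Over all genes tested the medians were 45.3%, 53.4% and 49.4%. With the GC trend removed from each library, 5 of the 44 genes (11.4%) were higher and 9 (20.5%) lower in knockout, against 14.8% and 23.5% of all genes under the same correction, and the calls of Xpo1, Kpna1, Ipo11, Nup160, Nup62, Ipo4 and Ipo13 were lost while Kpnb1, Tnpo1 and Xpot were gained as lower. Kpna7 (49.6% GC) and Nup210l (48.9% GC) lie near the middle of the range, and their differences hardly moved with that correction. What part base composition has in the other differences was not tested.

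**Figure D5:**
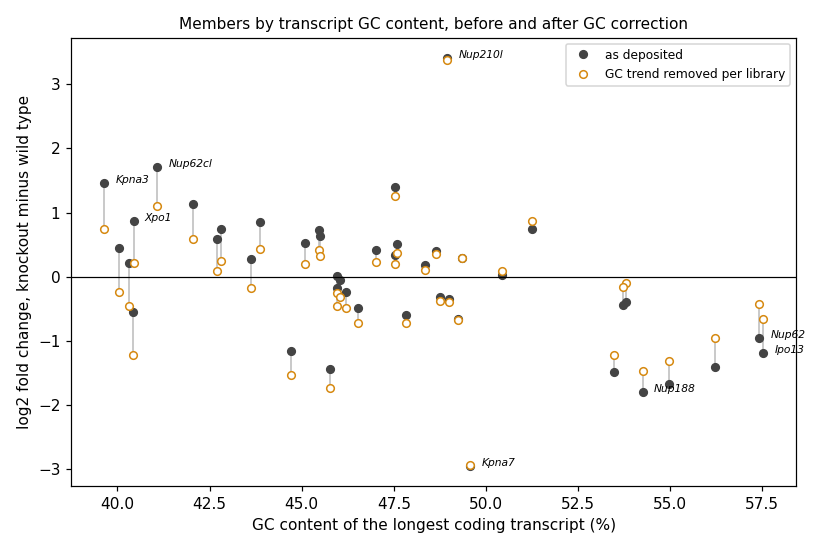
Log2 difference, knockout minus wild type, of each of the 44 genes against the GC content of its longest coding transcript, as deposited (filled points) and with the GC trend removed per library (open points, joined to the filled point of the same gene). Genes at the low end of GC, such as Kpna3 and Xpo1, move down and those at the high end, such as Nup62 and Ipo13, move up, whereas Kpna7 and Nup210l stay near -2.94 and 3.40.

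RBPMS proteins are known to bind RNA with pairs of CAC letters, so the 3' UTR of the longest coding transcript was searched for CAC on the sense strand wherever it had at least 100 bases. The median density was 11.9 per kb in the 8 higher genes with such a UTR, 19.7 in the 8 lower genes and 13.4 in the 25 not called. The same medians over all genes tested were 12.5, 16.1 and 14.5 per kb. A pair of CAC separated by 1 to 12 bases occurred in 6 of 8 higher, 8 of 8 lower and 17 of 25 uncalled genes, against 72.8%, 82.7% and 79.9% over all genes. A match describes letters only.

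RefSeq promoters, taken from 250 bases before to 50 after the start, were at hand for 35 of the 44 genes, with the first listed start used for each. CANNTG, which reads as the same pattern on both strands, occurred in 0 of 5 higher, 5 of 8 lower and 8 of 22 uncalled genes, and in 72.3% of 32851 RefSeq promoters of that length. CACGTG, one form of CANNTG, occurred in 0, 3 and 4 of them (7.15% of all promoters). TAATTG on either strand, letters bound by homeodomain factors such as the oocyte factor Nobox, occurred in none of the 35 (8% of all promoters), and TATAAA on either strand in 1 higher and 1 uncalled gene (13.6%). The shares of all promoters were not limited to genes tested here or to the first listed start of a gene. They are thus not a matched background for the 35, and no difference from them was tested.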

How the data were processed

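RNA from 8 libraries of postnatal day 1 oocytes (4 wild type, 4 Rbpms2 knockout) was analysed from FPKM values that the authors deposited in 1 table of 21959 genes. Tools named in the submitters' processing notes are HISAT2, HTSeq and cutadapt, with GRCm38 (mm10) as the build. Tool versions and the annotation were not given in the sources used here. A microarray is mentioned in the labels, but the values come from sequencing. Gene identifiers were matched to symbols (21851), exon lengths (21902) and transcripts of GENCODE M21, and promoters came from RefSeq (GRCm38.p6). Groups follow the sample titles.

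Genes with at least 1 FPKM in 4 or more libraries (11235) were fitted in R 4.3.3 by limma 3.58.1 to log2(FPKM + 1), with an eBayes trend and genotype as the only term, with Benjamini-Hochberg adjustment over all of them and a threshold of 0.05. Differences on that scale understate the change of low genes, and folds are ratios of mean FPKM. Multiplied by exon length, 97.4% to 97.6% of values per library were whole read numbers within 0.02, which gave the depths and reads quoted, and floors at 3 reads cover counting error only. Reads of amplified RNA without molecular identifiers are not independent molecules. Any 2 libraries of a genotype differed by more than sampling noise (chi-square over degrees of freedom at least 33.65). The script was tested on simulated data. Near-identical transcripts (95% or more over at least 200 bases) were sought with blastn 2.17.0.

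The symbol rule uses no measured value, but it, the roles and the lists were chosen with earlier results of these data known. By rule, values per library are given for the 6 importin alpha genes, Kpnb1, Xpo1, Nup98, Nup210, Nup210l, Nup153, Nup107, the 10 largest called rises and falls (9 of each existed) and up to 3 called genes per role. Outside the set, Ran, Cse1l, Rcc1, Ranbp2, Tpr, Nxf1 and up to 3 called genes per list are named, and Nupl1, Nupl2 and overlapping genes were named for their sequence. Seh1l, Ahctf1, Gle1, Nxf2 and Nxf3 were named after their values were seen. The alternatives tried were a pseudocount of 0.1 or 5, fitting without a filter or with one at 5 FPKM, quantile or median-of-ratios scaling, a replicate block, a GC correction (loess, span 0.5, per library), leaving out 3 libraries rich in somatic markers or each library in turn, and, added after the data were seen, the GC correction with the block, limma-voom on recovered reads, and Kpna2 summed with Gm10184. Python 3.11.15 made tables and figures.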

Additional observations from a re-analysis of the deposited data

Results flagged for a closer look

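Of 116 groups of 4 libraries examined, 4 had a library that stood apart from the other 3 by Dixon's criterion, where chance alone gives about 1 in 20. Tnpo3 in wild-type library 4 was at 2.95 FPKM, with 2.53 FPKM the next below. Nup62 in knockout library 2 was at 30.2 FPKM, with 23.1 FPKM the next below. Tpr in knockout library 3 was at 43.0 FPKM and the next at 35.9 FPKM, and Nutf2 in knockout library 2 was at 79.1 FPKM and the next at 56.1 FPKM. Leaving out any of these libraries changed the call of none of these 4 genes.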

How the results depend on the processing

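Calls stayed the same in each alternative that tested the gene for 4 of the 9 higher genes (Tnpo3, Kpna3, Nup210l, Nup62cl) and 6 of the 9 lower genes (Kpna7, Nup188, Nup210, Ipo8, Tnpo2, Xpo7), where Tnpo2 and Xpo7 were not tested with the filter at 5 FPKM. The number of higher genes among the 44 was 9 and became 5 with the GC correction and 5 with the GC correction and replicate block; elsewhere it ran from 6 to 12, and the number of lower genes from 7 to 10. Median-of-ratios scaling moved the median of all genes from -0.12 to -0.0002 and quantile scaling to 0.04, and all genes were then 2310 higher to 2506 lower and 2503 higher to 2511 lower, against 1991 to 2880. Quantile scaling added calls of Kpna4 (0.65, adjusted p = 0.0461) and Nup155 (0.81, 0.0453) as higher. Without a filter Nup85, Ipo4 and Ipo13 lost their calls (adjusted p = 0.05003, 0.0577 and 0.0915). The difference of Kpna7 over Kpna2 was -2.95 with the replicate block (sign flips of the 4 pairs, exact p = 0.125, the smallest possible), -2.41 without the 3 libraries rich in somatic markers (p = 0.200, the smallest 3 against 2 allow), and -3.14 to -2.57 with each library left out (p = 0.0571, the smallest possible). These designs cannot reach 0.05. Genes that changed sign were called in neither fit. Kpna2 was -0.0405 with quantile scaling, -0.26 with the GC correction, alone or with the block, and -0.19 to 0.33 without single libraries. With the GC correction, alone or with the block, Kpna4 was -0.24, Nup37 -0.17, Ipo7 -0.45, Tpr -0.14 and Nxf1 0.13. Nxf1 was 0.0021 with a pseudocount of 5, 0.15 with median-of-ratios scaling, 0.36 without the 3 libraries and -0.23 to 0.16 without single libraries. Ipo5 was 0.10 with median-of-ratios scaling, 0.28 without the 3 libraries and -0.215 to 0.13 without single libraries, Xpo5 was -0.15 to 0.14 and Nup153 -0.35 to 0.039 without single libraries. The cause was not tested. Libraries with the same replicate number did not pair (correlations of their deviations 0.1854, 0.0158, 0.3606 and -0.053, with 1 of 4 best with its own number); with the block 8 genes were higher and 10 lower, Nup160 was lost and Kpnb1 gained.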
